A study of Mus musculus with 62 samples.

Results

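The AP-1 family examined here comprised the 7 Fos and Jun genes Fos, Fosb, Fosl1, Fosl2, Jun, Junb and Jund. They were taken by name from the 53975 gene identifiers of the deposited gene abundance tables, and all 7 passed the filter on low values in both systems. Levels are TPM (relative transcript abundance, normalised to transcript length and library total) divided by a median-of-ratios factor within each system, called scaled TPM, so levels may be compared between genes as well as between libraries of a system. Changes are differences of group means of log2(scaled TPM + 1), a scale that makes changes of low genes look smaller.

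The study profiled long RNA in 17 mouse hippocampus and 14 HT-22 libraries. Each mouse library held the pooled left and right hippocampus of 1 mouse. Mice carried the App allele NL-G-F (APP), in which humanised and mutated App is expressed from the endogenous gene, or were C57BL/6J wild types (WT). Ages were 3, 6 and 12 months, and each genotype and age had 3 mice, except that only 2 WT mice were 3 months old. HT-22 cells are an immortalised mouse line of hippocampal origin, used here at passage 4. They received a locked nucleic acid (LNA) oligonucleotide for 24 h, either against Hsf1 at 150 nM or with a scrambled sequence at 50 uM as labelled, followed by a peptide at 30 uM, either amyloid beta 1-42 (Aβ42) or its reversed sequence. The labels call only the peptide dose final, so the LNA values may not be the doses the cells received, and the LNA comparison is not known to be at matched doses. Under the scramble LNA there were 4 libraries per peptide, and under the anti-Hsf1 LNA 3 per peptide. The labels call the HT-22 libraries biological replicates without saying whether they came from separate cultures, so p-values measure the spread between these libraries, which may be partly technical.

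AP-1 is a dimeric transcription factor of the basic leucine zipper class. Jun proteins can pair with each other or with a Fos protein, whereas Fos proteins need a Jun partner, and the dimers bind the TRE and related sites. Fos, Fosb, Jun and Junb are immediate-early genes, whose transcription rises quickly and briefly after growth factors, serum, stress or synaptic activity, through SRF with its ternary complex partners, CREB and the MAP kinases. In the hippocampus Fos is widely used as a marker of recently active neurons. Fosl1 and Fosl2 encode the Fos-related antigens Fra-1 and Fra-2, which are often induced later, and JunD is the most constantly expressed Jun protein.

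The 4 Fos genes have 4 exons in their longest annotated transcript and the 3 Jun genes have 1. In GRCm38 coordinates, as the files give them, Fos lies on chromosome 12 (85473890 to 85477273, plus strand), Fosb on chromosome 7 (19302696 to 19310051, minus), Fosl1 on chromosome 19 (5447703 to 5455945, plus) and Fosl2 on chromosome 5 (32135801 to 32157842, plus). Jun lies on chromosome 4 (95049034 to 95052222, minus), Junb on chromosome 8 (84974484 to 84978718, minus) and Jund on chromosome 8 (70698949 to 70700616, plus). Overlapping genes are annotated for 4 members: Ccdc85b at Fosl1, the antisense Junos at Jun, Prdx2 at Junb and the antisense Gm11175 at Jund. The use of strand in counting was not stated in the labels or headers, so reads in the overlaps cannot be assigned with certainty.

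Promoter windows of RefSeq (GRCm38.p6, 250 bases before to 50 after the annotated start) matched 6 of the 7 members, Fosl1 excepted. The 120 bases upstream of the start are printed for Fos, Fosb, Jun and Junb, the 4 members with an upstream window among the 5 that moved together by at least 2-fold in HT-22 cells. Capitals mark a TATA box (TATAAA), a CRE-like element (TGACGCAA), a CCAAT box (CCAAT) or a GC box (GGGCGG, on either strand).
Fos, chr12:85473770-85473889, plus strand: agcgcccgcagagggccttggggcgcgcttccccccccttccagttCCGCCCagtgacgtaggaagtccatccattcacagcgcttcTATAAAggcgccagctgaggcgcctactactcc
Fosb, chr7:19310046-19310165, minus strand: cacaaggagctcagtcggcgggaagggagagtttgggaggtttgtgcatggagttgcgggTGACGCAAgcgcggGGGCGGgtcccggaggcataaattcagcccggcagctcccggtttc
Jun, chr4:95052223-95052342, minus strand: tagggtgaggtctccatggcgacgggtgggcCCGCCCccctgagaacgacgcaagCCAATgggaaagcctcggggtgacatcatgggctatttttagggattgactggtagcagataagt
Junb, chr8:84978749-84978868, minus strand: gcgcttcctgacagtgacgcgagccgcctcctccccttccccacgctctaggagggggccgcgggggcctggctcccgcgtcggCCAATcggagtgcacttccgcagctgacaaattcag

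Positions are counted from the start as base 1, with base -1 just upstream. In Fos, TATAAA lay at -33 to -28 and a GC box at -74 to -69. In Fosb, the CRE-like element lay at -60 to -53 and the nearest GC box at -46 to -41. A CCAAT box lay at -65 to -61 in Jun and at -36 to -32 in Junb. Junb also held TATAAA at 1 to 6, just after the RefSeq start and so outside the printed bases. Both strands were searched over 32817 windows of 300 bases, of which TATAAA was in 13.6%, TGACGCAA in 0.491%, CCAAT in 37.4% and GGGCGG in 35.6%. None of the 6 windows held TGACGTCA (1.79% of all), TGANTCA (7.81%), a CArG box (the SRF motif; 1.63%) or a heat shock element (3 units in alternating orientation; 0.603%). GGGCGG was in 4 of the 6 windows, Fos, Fosb, Fosl2 and Jun. The RefSeq start was that of the files for Fos and Jun, 6 bases downstream of it for Fosb and 30 upstream for Junb. For Fosl2 it lay 671 bases downstream and for Jund 1210 bases upstream, so those 2 windows are not at the starts given above. A match or its absence describes the searched pattern in this window only. Other variants of a motif, such as tgacatca in the printed Jun bases, were not searched, nor were bases outside the window. An absence therefore does not show that a promoter lacks such a site.

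Several facts of the libraries bear on the members. Relative depth, as the ratio of deposited coverage to FPKM, ran from 0.724 to 2.60 in HT-22 and from 1.42 to 3.04 in mouse libraries. Protein-coding genes took 30.1% to 61.8% of TPM in HT-22 and 26.6% to 51.0% in mouse libraries, which is why TPM was rescaled. HT-22 cells lacked the markers of mature neurons: Rbfox3, Snap25, Syt1, Nefl and Nefm were listed at 0 in all 14 libraries, and the 8 neuronal markers summed to 1.55 to 7.04 scaled TPM against 1990 to 2540 in hippocampus. Fibroblast or mesenchymal markers summed to 4650 to 6610 in HT-22 and to at most 32.2 in hippocampus. Hsf1, the target of the LNA, averaged 61.6 ± 9.31 (SD, n = 4) with Aβ42 and scramble LNA and 47.2 ± 4.07 (n = 3) with Aβ42 and anti-Hsf1 LNA. With the reverse peptide it averaged 53.8 ± 7.89 (n = 4) and 48.2 ± 4.81 (n = 3). Neither difference passed (limma, adjusted p = 0.52 and 0.959).

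In HT-22 cells the most abundant members by median scaled TPM were Jund (75.5), Fosl2 (65.5) and Jun (45.3), followed by Junb (19.8), Fosl1 (5.97), Fosb (5.18) and Fos (4.24). Jund was above Fosl2 in 7 of 14 libraries, so their order was not separated, whereas Fosl2 was above Jun in all 14. The last members were also close, Fosl1 being above Fosb, and Fosb above Fos, in 11 of 14.

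The largest differences among the HT-22 libraries lay between libraries of the same treatment group, under scramble LNA. Fos measured 3.17, 2.56, 37.0 and 66.9 scaled TPM in Aβ42 scramble libraries 1 to 4, and 3.61, 2.62, 6.83 and 39.1 in reverse scramble libraries 1 to 4. In the anti-Hsf1 libraries it measured 3.49, 3.94 and 6.64 with Aβ42 and 4.28, 4.19 and 5.34 with the reverse peptide. Thus Aβ42 scramble 3 and 4 and reverse scramble 4 stood above the other 11 libraries, their lowest value being 5.41 times the highest of the 11. All 3 were under scramble LNA, and no anti-Hsf1 library reached their level. No anti-Hsf1 library carries replicate number 4. For Aβ42 scramble 4 and reverse scramble 4, replicate number and LNA therefore cannot be told apart.

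Fosb, whose product is a dimer partner much like Fos, measured 3.02, 3.45, 87.6 and 101 in Aβ42 scramble and 4.10, 4.23, 5.10 and 55.1 in reverse scramble. The 6 anti-Hsf1 libraries lay between 3.09 and 7.23. The 3 libraries high in Fos were again the highest, by 7.63 times. Fosl1, which encodes Fra-1, measured 3.38, 3.41, 100 and 105 in Aβ42 scramble, 6.22, 5.07, 5.75 and 94.0 in reverse scramble, and 2.34 to 6.98 under anti-Hsf1. Its gap of 13.5 times was the widest of the 7 members. The overlapping gene Ccdc85b was also highest there, at 44.0 to 62.3 against at most 29.7. Fosl2 (Fra-2) was 144 to 206 in the 3 libraries and 54.7 to 74.6 in the other 11, a gap of 1.93 times from a much higher base.

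Among the Jun genes, Junb measured 14.7, 22.7, 228 and 237 in Aβ42 scramble and 25, 18.1, 21.4 and 275 in reverse scramble, with 15.1 to 20.7 under anti-Hsf1. Jun measured 39.8, 42.0, 144 and 157 in Aβ42 scramble, 50.3, 38.2, 44.3 and 124 in reverse scramble, and 37.9 to 55.8 under anti-Hsf1. The gaps were 9.13 times for Junb and 2.22 times for Jun. The antisense Junos did not show this gap (7.20 to 9.40 against at most 8.35). Jund did not follow the others: it was 71.3 to 87.5 in the 3 libraries and 55.8 to 86.5 in the rest.

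**Figure D1:**
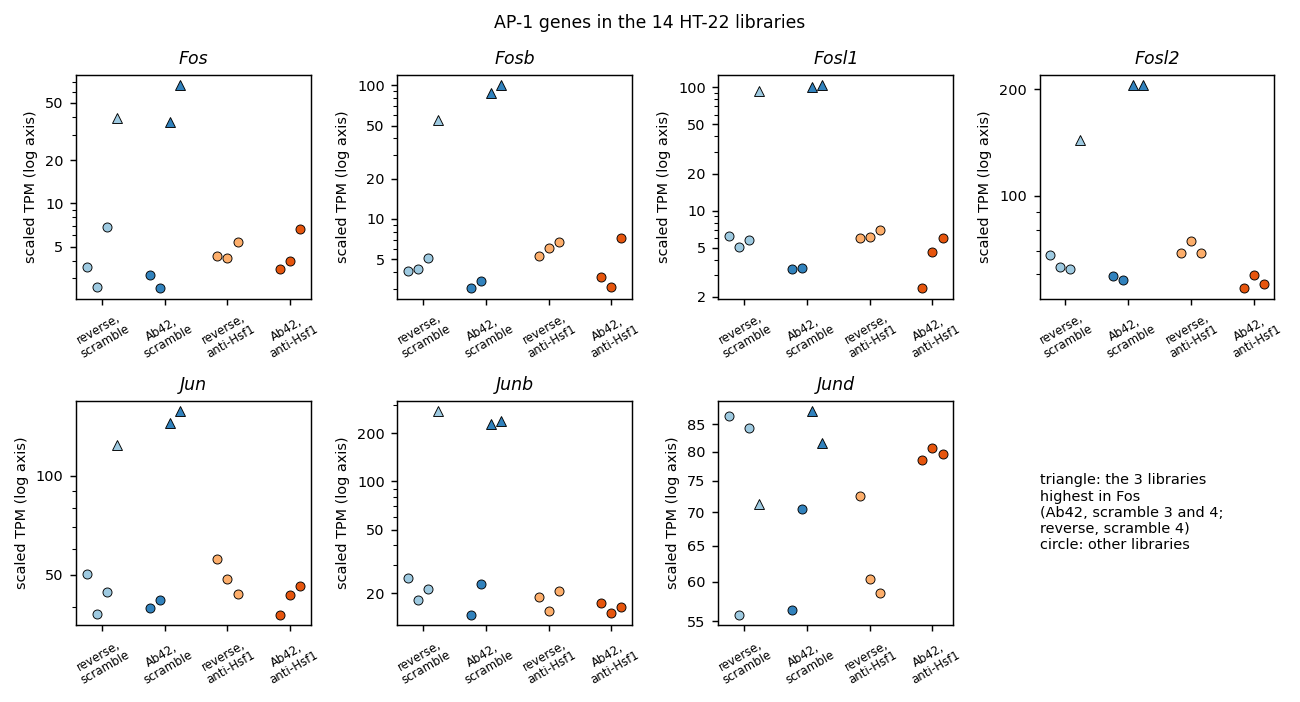
Scaled TPM (log axis) of each AP-1 gene in the 14 HT-22 libraries, by peptide and LNA; each point is 1 library and triangles mark Aβ42 scramble 3 and 4 and reverse scramble 4. The triangles lie above all circles for every gene except Jund, where they lie among them.

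The same 3 libraries were the highest for 6 of the 7 members, against 15.5% of all 17224 genes tested, and by at least 2-fold for 5 of 7, against 1.58%. The 3 libraries were chosen by their Fos level, so these counts are a description. Other immediate-early genes shared the pattern: 19 of 20 tested had these libraries highest, 16 by at least 2-fold, among them Egr1 (217 to 323 against at most 41.9), Nr4a1 (205 to 224 against 6.98) and Ier2 (156 to 180 against 33.9). All 12 tested genes listed as known AP-1 targets did so too, 8 of them by at least 2-fold. Of 8 tested basic leucine zipper partners, 5 had these libraries highest and the small Maf genes Maff (57.9 to 65.8 against 8.01) and Mafk (48.5 to 55.5 against 17.2) did so by at least 2-fold. Atf3, a Jun partner and itself an immediate-early gene, was listed at 0 in all 14.

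Among the regulators upstream of AP-1, 3 of 19 tested kinases and SRF-pathway genes had these libraries highest (15.8%, beside 15.5% of all genes), and 1, Srf itself, by at least 2-fold (117 to 142 against 39.0). Beside Srf, the upstream genes highest there were Map2k4 (64.6 to 70.4 against at most 53.8) and Elk4 (80.7 to 97.3 against at most 73.2). Mapk8, the kinase JNK1, was 31.5 to 36.5 in these libraries and up to 44.1 elsewhere. Of 8 genes for turnover of AP-1 mRNA and protein, 3 had these libraries highest and 1 by 2-fold, the mRNA decay factor Zfp36l2 (381 to 463 against 101).

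Other measures moved with these 3 libraries. Their relative depth was 1.20 to 2.60 against 0.724 to 1.21, and their protein-coding share of TPM 55.7% to 61.8% against 30.1% to 54.3%. The 8 microglial markers, of which 2 passed the filter and P2ry12, C1qa and C1qb were at 0, summed to 77.0 to 78.6 against 34.8 to 43.6, with 1 of the 2 highest in these libraries. The 6 choroid plexus markers, of which 2 passed and Ttr, Kl and Clic6 were at 0, summed to 102 to 112 against 39.6 to 61.4, with 1 of the 2 highest in these libraries and the other lowest. The 6 mesenchymal markers, which all passed, summed to 6310 to 6610 against 4650 to 5660, with 3 of 6 highest. The 8 neuronal markers, of which 1 passed, summed to 5.52 to 7.04 against 1.55 to 3.43. The 7 astrocyte markers overlapped, at 66.2 to 77.1 against 47.5 to 68.1. Of the 2 that passed, 1 was highest in these libraries and the other lowest. The sums of the remaining lists overlapped. The part of depth, coding share and cell make-up in the AP-1 levels was not tested. In bulk RNA, a change in the number of cells of a type and a change in RNA per cell cannot be told apart.

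The make-up of the family also differed between these libraries. Jund made up 8.54% to 9.82% of the summed scaled TPM of the 7 genes in the 3 libraries and 27.8% to 39.7% in the other 11. Junb made up 24.8% to 34.3% against 7.13% to 11.2%, and Fosl1 11% to 11.7% against 1.18% to 3.31%. The Fos genes together held 41.4% to 50.1% against 32.4% to 42.2%, so their share overlapped slightly.

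**Figure D2:**
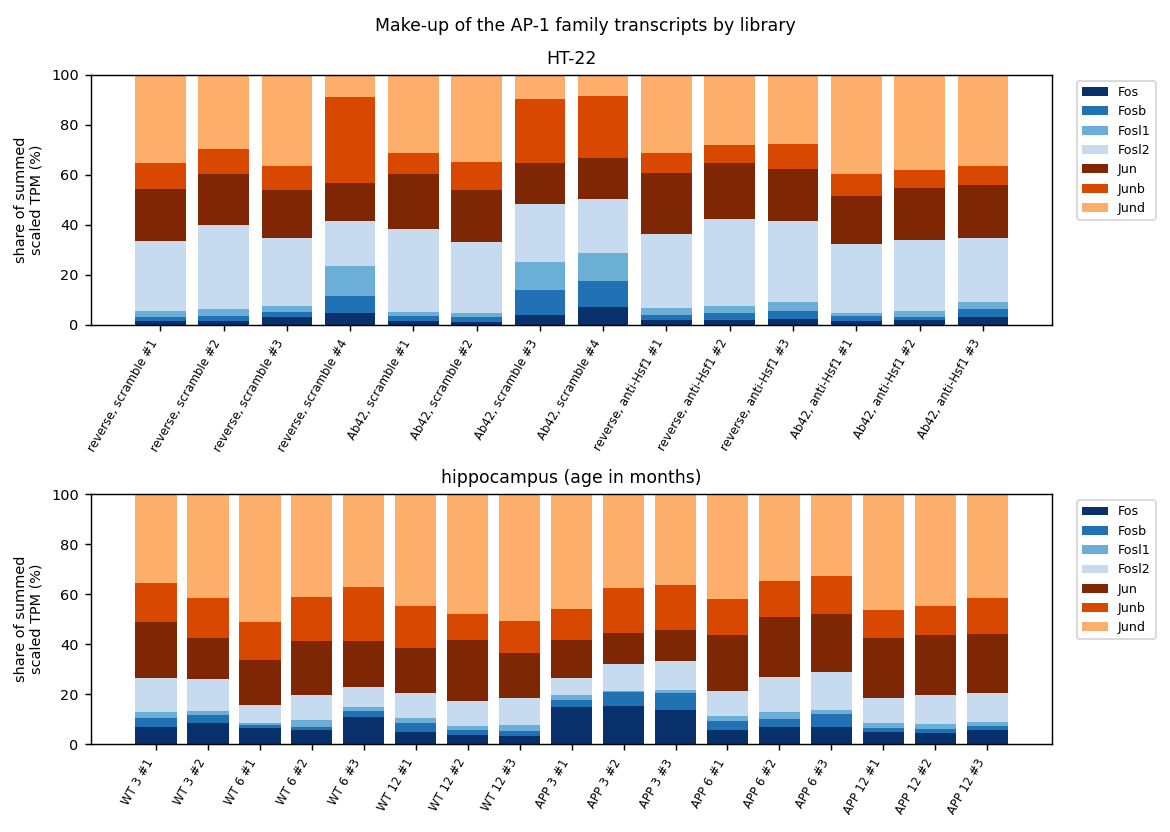
Share (%) of the summed scaled TPM of the 7 AP-1 genes held by each, stacked by library, for the 14 HT-22 libraries (top) and the 17 hippocampus libraries (bottom, ages in months; # gives the replicate number). Jund narrows to 8.54% to 9.82% in 3 HT-22 libraries, and Fos is widest, 13.8% to 15.5%, in the APP mice of 3 months.

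The peptide question was whether Aβ42 changed AP-1 genes relative to the reverse peptide. Under scramble LNA, Fos differed by 0.72 on the log2 scale (SE 0.92; 95% CI -1.26 to 2.69) and Fosb by 1.04 (SE 1.06), and with the other members 0 of 7 were called by limma at an adjusted p below 0.05 (background 0%; 866 genes and 0 members at an unadjusted p below 0.05). Without the 3 libraries, a choice made after seeing the data, Fos was -0.40 (SE 0.33), Fosb -0.37 (0.27) and Fosl1 -0.60 (0.27), so that the sign of 6 members turned. The libraries were chosen by their Fos level, and more of them were in the Aβ42 scramble group. Leaving them out therefore lowers these differences by construction and is no test of the peptide. Aβ42 scramble 1 and 2 then stood against reverse scramble 1 to 3. Again 0 of 7 were called (background 0.00582%; 1278 genes and 0 members at an unadjusted p below 0.05).

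Under anti-Hsf1 LNA, Fos did not differ between peptides by more than its error (-0.01, SE 1.06), and Jund was 0.32 higher with Aβ42 (SE 0.18). Limma called 0 of 7 members (background 0%; 789 genes and 0 members at an unadjusted p below 0.05). Without the 3 libraries, which are not in these groups but enter the shared estimate of the spread, Fosl2 was -0.31 (SE 0.07, adjusted p = 0.385). With all 14 libraries Fosl2 was also -0.31, with SE 0.47. The smaller SE follows from leaving out libraries chosen by their Fos level, in which Fosl2 was 144 to 206. The unadjusted p of that fit rests on this choice. For Fosl2 the 3 Aβ42 libraries (54.7, 59.8 and 56.4) lay below the 3 with the reverse peptide (68.8, 74.6 and 68.7). In that fit 0 of 7 were called (background 0.0233%), and Fosl2 was the 1 member at an unadjusted p below 0.05, as were 1586 genes.

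The LNA comparison asked whether the oligonucleotide against Hsf1, the heat shock transcription factor, altered the members. With the reverse peptide the changes ran from -1.12 (Junb, SE 1.01) to -0.15 (Fosl2, SE 0.44), and limma called 0 of 7 (background 0%; 621 genes and 0 members at an unadjusted p below 0.05). Without the 3 libraries they ran from -0.22 (Junb and Jund) to 0.35 (Fosb), again with 0 called (background 0%; 854 genes and 0 members at an unadjusted p below 0.05). Reverse scramble 4 was among the libraries left out. They were chosen by their Fos level, so the shift is no test of the LNA.

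With Aβ42, the mean log2 differences of 6 members between anti-Hsf1 and scramble LNA were large and negative: Fosl1 -2.07 (SE 1.20), Junb -1.95 (1.01), Fosb -1.89 (1.14), Fos -1.34 (0.99), Fosl2 -0.94 (0.44) and Jun -0.88 (0.49), with Jund at 0.12 (0.17). None was called (adjusted p from 0.549 to 0.784; background 0.0232%; 1554 genes and 0 members at an unadjusted p below 0.05). Without the 3 libraries the values were 0.21, -0.15, 0.35, 0.52, -0.04, 0.05 and 0.33 in the same order, and 0 of 7 were called (background 0.0233%; 1321 genes and 0 members at an unadjusted p below 0.05). The 3 libraries were chosen by their Fos level, and 2 of them were in the Aβ42 scramble group. Leaving them out therefore shrinks these differences by construction and is no test of the LNA. When limma down-weighted variable libraries, 6 members were called in this comparison and their differences grew, as for Fos (-2.48), Fosl1 (-3.44) and Junb (-3.01). The 3 libraries were part of that fit, and the weight each library received is not given. On TPM as deposited 3 members were called, and on that scale the median of all genes was itself -0.62.

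For the interaction of peptide and LNA, the members ran from -1.41 (Fosb, SE 1.61) to 0.33 (Jund, SE 0.24). Limma called 0 of 7 (background 0%; 891 genes and 0 members at an unadjusted p below 0.05). Without the 3 libraries Fosb was 0.00 (SE 0.37) and Jund 0.55 (SE 0.24), the 1 member at an unadjusted p below 0.05, with 1339 genes at that level and 0 of 7 called (background 0.0233%). The 3 libraries belong to groups compared here and were chosen by their Fos level, so this fit is no test of the interaction.

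**Figure D3:**
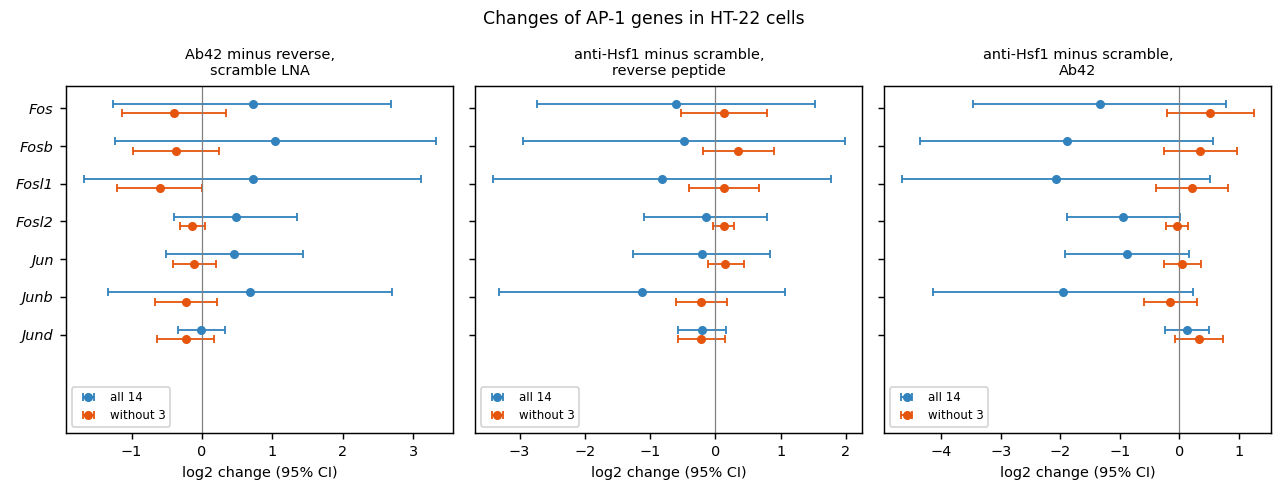
Log2 change (point) with 95% confidence interval (bar) of each AP-1 gene in 3 HT-22 comparisons, from all 14 libraries (blue) and without the 3 libraries high in Fos (orange). Every interval from all 14 libraries spans 0, and with the 3 libraries left out the intervals of Fos, Fosb, Fosl1, Fosl2, Jun and Junb are narrower. The 3 libraries were chosen by their Fos level, so the narrowing follows from that choice.

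In hippocampus the order by median scaled TPM was Jund (55.4), Jun (24.3), Junb (18.8), Fosl2 (14.2), Fos (8.29), Fosb (3.55) and Fosl1 (2.29). Jund was above Jun, and Fos above Fosb, in all 17 mice. Neighbours were less separated elsewhere: Jun was above Junb in 14 of 17 and Fosl2 above Fos in 13. With HT-22 and hippocampus scaled together, which also compares sets of libraries of different make-up, Fosl2 was the 1 member whose ranges did not meet, at 38.0 to 142 in HT-22 and 9.94 to 30.7 in hippocampus.

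Age within APP mice gave the calls among the members. Fos measured 15.9, 27.0 and 21.9 at 3 months, 8.29, 9.01 and 10.1 at 6 months, and 6.48, 5.54 and 7.21 at 12 months. The means were 21.6 ± 5.56, 9.15 ± 0.936 and 6.41 ± 0.836 (SD, n = 3 each), and the 3-month libraries lay above all others. Between 12 and 3 months Fos fell by 1.59 on the log2 scale (SE 0.24; limma, adjusted p = 0.00314). Jun changed the other way. It measured 15.9, 21.4 and 19.8 at 3 months, 31.9, 31.1 and 32.8 at 6 months and 31.3, 29.5 and 29.8 at 12 months, so that the 3-month libraries lay below all of the later ones. From 3 to 12 months Jun rose by 0.65 (SE 0.14; limma, adjusted p = 0.0209). These were the 2 members called of 7, where 3.27% of all genes were called, 1.9% higher and 1.37% lower.

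Fosb measured 2.93, 9.27 and 10.7 at 3 months and 2.25, 1.94 and 2.06 at 12 months in APP mice. All 3 young libraries were the higher, and the difference of -1.34 (SE 0.35) missed the threshold (adjusted p = 0.0531). When limma down-weighted variable libraries, Fosb was called here (-1.60, adjusted p = 0.00707). Junb measured 13.0, 31.2 and 28.7 at 3 months and 14.8, 14.3 and 18.4 at 12 months, with overlapping groups and a difference of -0.50 (SE 0.25, adjusted p = 0.349). Fosl1 (0.32, SE 0.22), Fosl2 (0.03, SE 0.25) and Jund (-0.02, SE 0.16) were not called. The ratio of Fos to Jun levels was 0.999 to 1.26 in the 3 youngest APP mice and 0.156 to 0.586 in the other 14 mice.

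APP mouse 1 of 3 months stood apart. Its hippocampal excitatory neuron markers summed to 368 scaled TPM against 862 and 966 in the other mice of the group, its striatal markers to 171 against 69.4 and 49.3, and its choroid plexus markers to 2420 against 622 and 576. It was also the lowest of its group in Fos, Fosb, Fosl2, Jun, Junb and Jund. Without it, Fos fell by 1.78 (adjusted p = 0.00357), Fosb by 1.83 (adjusted p = 0.00491) and Junb by 0.88 (adjusted p = 0.0239), whereas Jun at 0.53 was no longer called (adjusted p = 0.0664). The call for Jun was also lost without any 1 of the 3 APP mice of 12 months (adjusted p up to 0.0832 over all alternatives), in a fit of the 2 groups alone (0.0726) and on TPM as deposited (0.0652). Fos was called under each of its 14 alternatives (-1.78 to -1.42).

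Marker levels moved with age in APP mice as well. The 7 oligodendrocyte markers summed to between 1570 and 2620 scaled TPM at 3 months and between 1130 and 1250 at 12 months. The 8 microglial markers summed to between 142 and 144 at 3 months and between 337 and 434 at 12 months, and the 7 astrocyte markers to between 1010 and 1150 and between 1620 and 1790. The choroid plexus markers, between 576 and 2420 at 3 months and between 1440 and 1660 at 12 months, overlapped. The striatal markers summed to 171, 69.4 and 49.3 at 3 months and to between 33.4 and 43.9 at 12 months, without overlap. Their part in the changes of Fos and Jun was not tested.

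**Figure D4:**
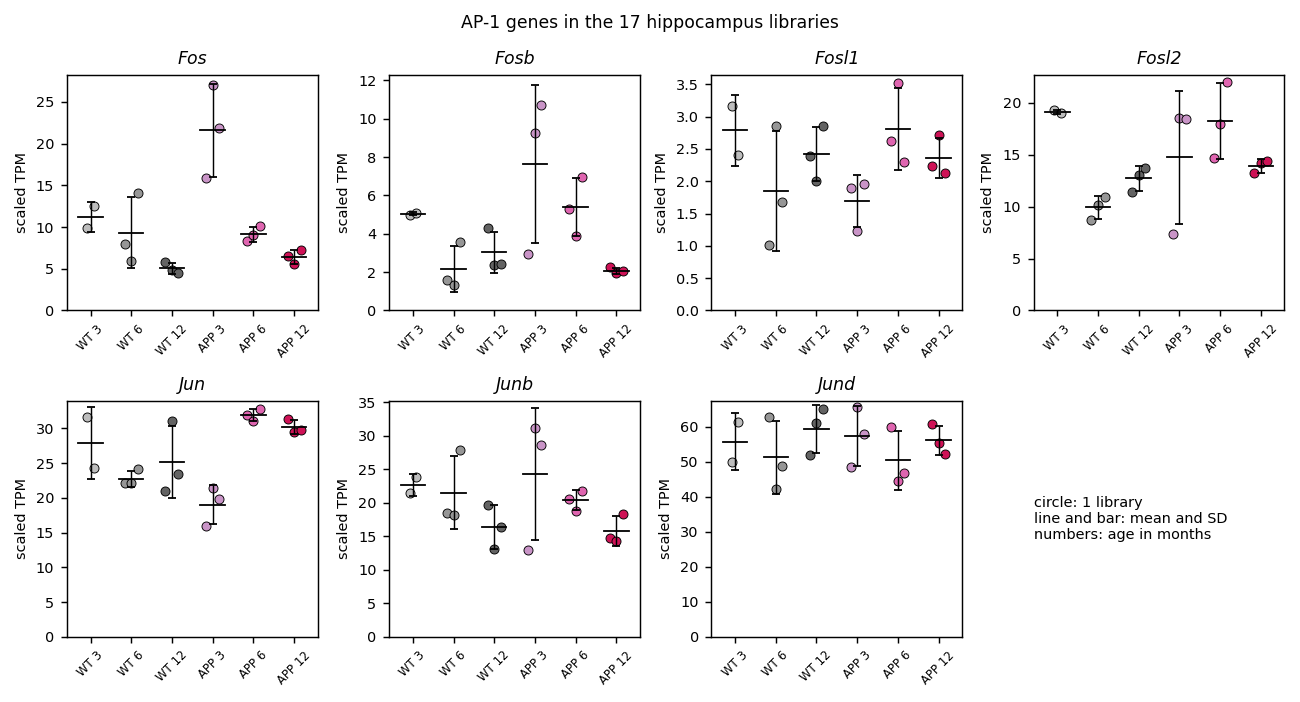
Scaled TPM of each AP-1 gene in the 17 hippocampus libraries by genotype and age in months; circles are single mice, and lines with bars are the mean and SD of a group (n = 2 for WT at 3 months, otherwise 3). Fos is highest in the 3 APP mice of 3 months (15.9 to 27.0), and Jun is lowest there (15.9 to 21.4).

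In WT mice Fos measured 9.93 and 12.5 at 3 months, 8.01, 5.90 and 14.1 at 6 months, and 5.81, 4.83 and 4.55 at 12 months. The groups at 3 and 12 months did not overlap, and the difference of -1.01 (SE 0.27) was not called (adjusted p = 0.30). Jun was 31.6 and 24.3 at 3 months and 21, 31 and 23.5 at 12 months (-0.16, SE 0.15). Limma called 0 of 7 members for WT age (background 0.0619%; 1471 genes and 1 member, Fos, at an unadjusted p below 0.05). Xist was 90.7 to 92.2 in WT mice of 3 months and at most 0.524 in those of 6 and 12 months, whose Ddx3y was 18.8 to 28.2. All APP mice had Xist at 70.6 to 137 and Ddx3y at most 0.0797. The labels give no sex, so age within WT, genotype at 6 and 12 months and the genotype by age interaction cannot be told apart from this difference, which is absent from age within APP and from genotype at 3 months.

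APP against WT tested genotype at each age. At 3 months Fos was higher in all 3 APP mice than in the 2 WT mice (0.86, SE 0.27, adjusted p = 0.17) and Jun lower in all 3 (-0.53, SE 0.15, adjusted p = 0.153), yet limma called 0 of 7 members (background 0.304%; 2378 genes and 2 members at an unadjusted p below 0.05). At 6 months the members with the largest differences were Fosb (1.05, SE 0.35, adjusted p = 0.137), Fosl2 (0.80, SE 0.25, adjusted p = 0.105) and Jun (0.47, SE 0.14, adjusted p = 0.0934). For each of these, all 3 APP mice were above all 3 WT mice: Fosl2 was 14.7, 18.0 and 22.0 against 8.69, 10.2 and 10.9, and Fosb 5.30, 3.91 and 6.96 against 1.59, 1.34 and 3.55. Limma called 0 of 7 (background 1.71%; 3021 genes and 3 members at an unadjusted p below 0.05). On TPM as deposited 6 members were called at 6 months, where the median of all genes was 0.60; the coding share of TPM was 36.2% to 51.0% in those APP mice and 26.6% to 28.5% in the WT mice.

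At 12 months the changes ran from -0.35 (Fosb, SE 0.35) to 0.29 (Fos, SE 0.24), and limma called 0 of 7 (background 0.433%; 1249 genes and 0 members at an unadjusted p below 0.05). The F test of the genotype by age interaction asked whether the genotype difference varied with age. Jun came nearest: its genotype difference was 1.00 higher at 6 than at 3 months and 0.80 higher at 12 than at 3 months (adjusted p = 0.0639 over both). For Fos these values were -0.82 and -0.58 (adjusted p = 0.405), so the age change of Fos was not shown to differ between APP and WT. Fosl2 gave 1.26 and 0.58 (adjusted p = 0.18), and Fosb gave 0.69 and -0.72, opposite in sign (adjusted p = 0.29). The test called 0 of 7 (limma; background 0.467%; 2847 genes and 4 members at an unadjusted p below 0.05). Jun was called in the interaction with a filter of 5 scaled TPM (adjusted p = 0.0455), on TPM as deposited (0.00112, with 4 members called) and without APP mouse 2 of 3 months (0.0495) or WT mouse 2 of 12 months (0.0428).

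**Figure D5:**
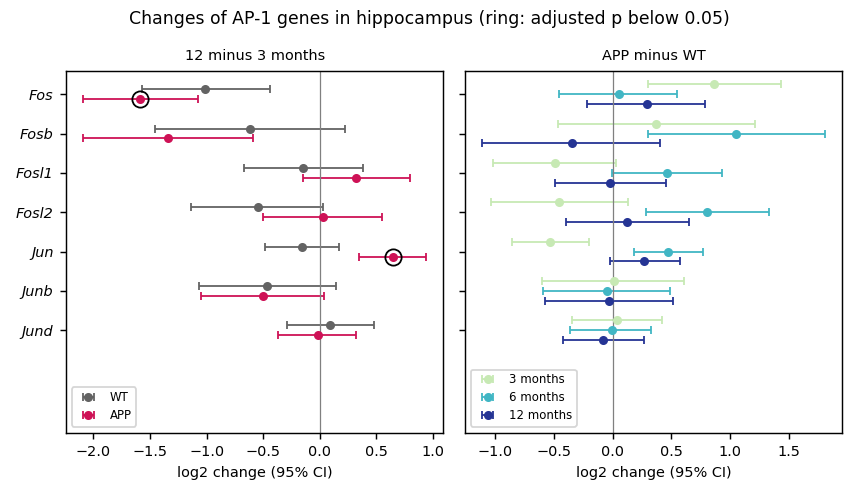
Log2 change (point) with 95% confidence interval (bar) of each AP-1 gene between 12 and 3 months in WT and APP mice (left) and between APP and WT at each age (right); rings mark adjusted p below 0.05. Fos (-1.59) and Jun (0.65) in APP mice carry the rings.

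Other pathway genes were read in the same comparison of 12 with 3 months in APP mice, where the median of all genes was 0.01 and 1.9% of genes were called higher and 1.37% lower. Of 21 tested immediate-early genes, 2 fell and 0 rose (median -0.34): Egr2, a zinc finger factor, by 1.37 (SE 0.32, adjusted p = 0.0304) and Dusp1, a MAP kinase phosphatase, by 1.03 (SE 0.22, adjusted p = 0.0223). Egr2 was 3.09 to 7.35 at 3 months and 1.36 to 1.57 at 12 months, and Dusp1 14.1 to 19.1 and 7.64 to 8.39. Of 7 tested AP-1 targets, 3 rose and 1 fell (median 0.92). The secreted phosphoprotein Spp1 (osteopontin) rose by 1.90 (SE 0.35), the urokinase gene Plau by 1.77 (SE 0.28) and Tgfb1 by 0.92 (SE 0.23), and the growth factor gene Hbegf fell by 0.72 (SE 0.17), with adjusted p from 0.00369 to 0.0411. Spp1 and Tgfb1 are also expressed by microglia, whose markers were higher at 12 months as given above; that part was not tested.

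Among the upstream genes 1 of 20 rose in that comparison, Elk1, an SRF partner (0.50, SE 0.12; limma, adjusted p = 0.0407). Of 8 turnover genes 1 rose, Zfp36, a decay factor for AU-rich mRNA (0.62, SE 0.16, adjusted p = 0.0446). The share of all genes called higher was 1.9%. None of 9 tested basic leucine zipper partners was called. At an unadjusted p below 0.05 were 7 of 21 immediate-early genes, 6 of 7 targets, 7 of 20 upstream genes, 4 of 8 turnover genes and 3 of 9 partners, against 16.5% of all genes. Between genotypes, Spp1 (2.10, SE 0.35) and Plau (1.81, SE 0.28) were higher in APP mice at 12 months (adjusted p = 0.0135 and 0.00754), and Cop1, a ubiquitin ligase acting on Jun, at 3 months (0.81, SE 0.16, adjusted p = 0.0453). Cop1 was 39.3 to 52.1 in those APP mice and 23.6 to 27.9 in the WT mice. No other gene of these lists was called for genotype.

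Over the mice of all groups, 4 of the 21 pairs of members correlated with both coefficients past the threshold after adjustment. The permutations took no account of genotype and age group, so these coefficients and p-values include differences between group means. Over the 17 mice, Fos and Fosb correlated at Pearson r = 0.74 and Spearman rho = 0.66 (permutation p = 0.00068 and 0.00441, adjusted 0.0164 and 0.0463 over 42 pairs in 2 systems). Fosb and Junb gave r = 0.74 and rho = 0.76 (permutation p = 0.00078 and 0.00065, adjusted 0.0164 and 0.0273). Fos and Junb gave r = 0.71 and rho = 0.68 (permutation p = 0.00145 and 0.00326, adjusted 0.0203 and 0.0456), and Fosb and Fosl2 r = 0.67 and rho = 0.70 (permutation p = 0.00379 and 0.00244, adjusted 0.0398 and 0.0456). Leaving out the 2 mice farthest from the median of the first gene of each pair lowered r to 0.49, 0.56, 0.47 and 0.63 in this order. This also cuts the range of that gene, which by itself tends to lower r. It therefore does not show how far the relations rest on those mice. Within groups, as deviations from group means, r was 0.78, 0.92, 0.79 and 0.73, without a p-value. These values include APP mouse 1 of 3 months, which stood apart in its markers. Its Fos was 15.9 against 27.0 and 21.9 in the other mice of its group, and its Fosb 2.93 against 9.27 and 10.7. Its Junb was 13.0 against 31.2 and 28.7, and its Fosl2 7.35 against 18.5 and 18.4. Within-group values without this mouse were not calculated, so how far they rest on it was not tested. Fos and Jun gave r = -0.44 and rho = -0.20 (permutation p = 0.0768 and 0.434), and within groups r = 0.22. Jund with Fos gave r = 0.04.

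In HT-22 cells the 14 libraries fell into separate clusters, so no pooled coefficient is given, and within the 11 libraries none of the 21 pairs passed after adjustment. Ranked by Pearson r with Fos over all 14 HT-22 libraries, the first of 11537 genes with a mean of at least 5 were Capn2, Ganab, Rras2, Wdr36 and Sgk1. The 3 libraries high in Fos enter that ranking, and within the other 11 the r of these genes was 0.61 to 0.79. Over the 17 mice, the nearest among 10984 genes were Lrrtm3 (0.904), Snora34 (0.886), Dnajb1 (0.885), Fam98a (0.883) and Jak2 (0.876). These libraries share scaling and depth, so the values only order the genes.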

How the data were processed

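Long RNA was sequenced after ribosomal RNA depletion, per the labels' protocols. Per the submitters' processing notes, the tools included HISAT2 2.1.0 and StringTie 1.3.4d, with mm10 and GRCm38 as builds. Per the file headers, the deposited tables give TPM, FPKM and a coverage signal per gene for each library. The authors' TPM sums to 999823 to 999917 per library. These units hold no read counts, which left depth relative and made limma on log values the test. The 31 short-RNA libraries were not used.

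TPM was summed per gene identifier (Junb had 2 rows in 25 libraries, the lower at most 1.71 TPM) and divided by median-of-ratios factors within each system. Genes with a mean scaled TPM of at least 1 were tested with limma 3.58.1 (R 4.3.3; trend and robust empirical Bayes) on log2(scaled TPM + 1), with 1 fit of 14 HT-22 and 1 of 17 mouse libraries. Calls used a Benjamini-Hochberg adjusted p below 0.05 over all 17224 or 17767 genes. The fit was tested on simulated data. Correlations used Pearson and Spearman coefficients with 100000 permutations (two-sided; scipy 1.17.1, Python 3.11.15). Groups came from the labels. Members and gene lists were chosen with earlier results of these data known. Named pathway genes were up to 4 called genes per direction and list. Alternatives were the scaling, the pseudocount, the filter, array weights, a replicate block, the groups in the fit, each library left out, and the 3 HT-22 libraries left out together.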

Additional observations from a re-analysis of the deposited data

Results flagged for a closer look

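Within the 4 reverse peptide libraries under scramble LNA, replicate 4 was far above the others for 6 of the 7 members by Dixon's criterion for a single distant value. It measured 39.1 scaled TPM for Fos, 55.1 for Fosb, 94.0 for Fosl1, 144 for Fosl2, 124 for Jun and 275 for Junb. The criterion could be applied to 14 sets of 4 libraries (7 genes in 2 groups), and chance meets it in about 1 of 20. The 6 genes were measured in the same library, so these are not separate events. In the Aβ42 scramble group, libraries 3 and 4 were both high, so neither was a single distant value.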

How the results depend on the processing

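Fos in APP mice kept its direction and its call under every alternative run for 12 against 3 months, and Jun kept its direction but not its call, as given with the result. The other turned signs below belong to changes that were called neither in the main result nor under the alternative, apart from Jund in HT-22 cells and at 6 months on TPM as deposited. For the changes listed, the cause was not tested. TPM as deposited moved the median of all genes by -0.68 to 0.60. The units hold no read counts, so no interval from depth is given for low members such as Fosb and Fosl1 (1.01 to 10.7 scaled TPM in mice). On TPM as deposited, Fos and Jun over mice gave r = 0.10, and 12 of 21 pairs of members passed with both coefficients over mice and 7 of 21 within the 11 HT-22 libraries, against 4 and 0 with scaled TPM.

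On TPM as deposited, the genes called numbered 4197 for Aβ42 against reverse under anti-Hsf1 LNA, 8766 for anti-Hsf1 against scramble with Aβ42, 4379 for the peptide by LNA interaction, 10339 for genotype at 6 months, 5910 for the genotype by age interaction, 21 for WT age and 286 for APP age. The members called there numbered 3 for anti-Hsf1 against scramble with Aβ42, 6 for genotype at 6 months, 4 for the genotype by age interaction and 1 for APP age. Turned signs under it were Jund 0.16 for Aβ42 against reverse under scramble LNA, Jund -0.26 for Aβ42 against reverse under anti-Hsf1 LNA, Jund -0.59 for anti-Hsf1 against scramble with Aβ42, Jund -0.42 for the peptide by LNA interaction, Junb 0.29 and Jund 0.22 for the genotype by age interaction, Jund -0.25 for WT age, Junb -0.18 and Jund -0.15 for genotype at 3 months, Junb 0.63 and Jund 0.69 for genotype at 6 months, Fosl1 0.07, Junb 0.11 and Jund 0.07 for genotype at 12 months. With array weights, the genes called numbered 13 for Aβ42 against reverse under anti-Hsf1 LNA, 1840 for anti-Hsf1 against scramble with Aβ42, 11 for the peptide by LNA interaction, 15 for genotype at 3 months and 149 for genotype at 12 months. The members called there numbered 6 for anti-Hsf1 against scramble with Aβ42. Turned signs under it were Jund 0.01 for Aβ42 against reverse under scramble LNA, Fosb 0.15 and Fosl2 0.03 for anti-Hsf1 against scramble with reverse peptide, Fosl2 -0.19 for APP age, Jund 0.01 for genotype at 6 months. With a filter of 5 scaled TPM, the genes called numbered 49 for genotype at 12 months, 165 for the genotype by age interaction and 386 for APP age. The members called there numbered 1 for the genotype by age interaction. Without a filter, the genes called numbered 2 for Aβ42 against reverse under anti-Hsf1 LNA, 2 for anti-Hsf1 against scramble with reverse peptide, 0 for anti-Hsf1 against scramble with Aβ42, 34 for genotype at 3 months, 115 for genotype at 6 months, 47 for the genotype by age interaction and 24 for WT age. With only the compared groups in the fit, the genes called numbered 4 for genotype at 3 months, 40 for genotype at 6 months and 144 for APP age. The members called there numbered 1 for APP age. With a pseudocount of 0.1, the genes called numbered 0 for anti-Hsf1 against scramble with Aβ42. With quantile normalisation, the genes called numbered 1 for anti-Hsf1 against scramble with Aβ42 and 138 for the genotype by age interaction. Turned signs under it were Fos 0.07 for Aβ42 against reverse under anti-Hsf1 LNA, Jund 0.01 for APP age, Jund 0.05 for genotype at 6 months. With the replicate block, the genes called numbered 1 for Aβ42 against reverse under scramble LNA, 2 for anti-Hsf1 against scramble with Aβ42 and 130 for the genotype by age interaction. Turned signs under it were Fos 0.14, Fosb 0.33, Fosl1 0.04, Fosl2 0.14 and Jun 0.14 for anti-Hsf1 against scramble with reverse peptide, Junb 0.06 for the genotype by age interaction, Junb -0.10 for genotype at 3 months. The 3 HT-22 libraries were chosen by their Fos level, so signs that turn without them test neither the peptide nor the LNA. Without the 3 HT-22 libraries, the genes called numbered 1 for Aβ42 against reverse under scramble LNA, 4 for Aβ42 against reverse under anti-Hsf1 LNA and 4 for the peptide by LNA interaction. Turned signs under it were Fos -0.40, Fosb -0.37, Fosl1 -0.60, Fosl2 -0.14, Jun -0.11 and Junb -0.22 for Aβ42 against reverse under scramble LNA, Fos 0.13, Fosb 0.35, Fosl1 0.13, Fosl2 0.13 and Jun 0.15 for anti-Hsf1 against scramble with reverse peptide, Fos 0.52, Fosb 0.35, Fosl1 0.21 and Jun 0.05 for anti-Hsf1 against scramble with Aβ42, Fos 0.38, Fosl1 0.07 and Junb 0.07 for the peptide by LNA interaction. Leaving out 1 library at a time, genes called ranged over 0 to 2 for Aβ42 against reverse under anti-Hsf1 LNA, 0 to 16 for anti-Hsf1 against scramble with Aβ42, 0 to 3 for the peptide by LNA interaction, 16 to 204 for the genotype by age interaction, 8 to 22 for WT age, 160 to 754 for APP age, 7 to 376 for genotype at 3 months, 66 to 284 for genotype at 6 months and 17 to 47 for genotype at 12 months. Members called ranged over 0 to 1 for the genotype by age interaction and 1 to 3 for APP age. Changes of sign without 1 library gave Fos -0.04 to 1.46, Fosl1 -0.05 to 1.68 and Jund -0.14 to 0.11 for Aβ42 against reverse under scramble LNA, Fos -0.25 to 0.14 for Aβ42 against reverse under anti-Hsf1 LNA, Fos -1.02 to 0.14, Fosb -0.80 to 0.36, Fosl1 -1.18 to 0.14, Fosl2 -0.27 to 0.13 and Jun -0.40 to 0.16 for anti-Hsf1 against scramble with reverse peptide, Fos -1.48 to 0.03 for the peptide by LNA interaction. In mice such changes gave Junb -0.42 to 0.18 and Jund -0.26 to 0.03 for the genotype by age interaction, Jun -0.34 to 0.03 and Jund -0.05 to 0.24 for WT age, Fosl2 -0.38 to 0.23 and Jund -0.14 to 0.08 for APP age, Junb -0.21 to 0.39 and Jund -0.11 to 0.19 for genotype at 3 months, Fos -0.20 to 0.36, Junb -0.15 to 0.14 and Jund -0.14 to 0.14 for genotype at 6 months, Fosl1 -0.11 to 0.07 and Junb -0.17 to 0.10 for genotype at 12 months.

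Replicate numbers showed no general pairing of the libraries. Deviations of same-numbered libraries correlated at -0.22 to 0.57 (median 0.01) over 19 HT-22 pairs and at -0.15 to 0.23 (median -0.01) over 40 mouse pairs. A median does not settle the pairing of single numbers. Under scramble LNA, number 4 was high in Fos with both peptides (66.9 and 39.1), and number 3 only with Aβ42 (37.0 against 6.83). As a block, the replicate numbers left Fos and Jun as the 2 members called for APP age.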
